A study of Mus musculus with 27 samples.

Results

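Dkk1 and 7 other genes for secreted Wnt antagonists (Dkk2, Dkk3, Wif1, Sfrp1, Sfrp2, Sfrp5 and Frzb) were examined in the embryonic day 14 (E14) mouse optic stalk (OS), the neural tube that joins the eye cup to the brain. The set was chosen because of Dkk1 and Wif1 in the dorsal mutants, so the dorsal difference between genotypes is described without a test for all 8 genes. They are 8 of the 55487 genes in the count table, and 7 of the 8 passed the filter on low counts, which asked for over 10 counts in 3 or more libraries, and Sfrp5 did not. Passing that filter says only that a gene was counted somewhere, and all 8 are described.

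The libraries came from laser-captured dorsal OS, ventral OS and the region of retinal ganglion cell (RGC) axons of 4 control and 5 Smarcc1-DCT-cKO embryos, which makes 6 groups and 27 libraries. Mutants were Baf155 (Smarcc1) loxP/loxP and carried Dct-Cre and the Z/EG reporter, and controls were littermates without Dct-Cre, all on a C57Bl6/J background. SMARCC1 is a core scaffold protein of SWI/SNF complexes, which move nucleosomes. Dct is a pigment gene, and its Cre transgene acts in the retinal pigment epithelium (RPE) and the OS but not in every optic disc cell, so a mutant sample can hold cells that kept the gene.

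Wnt proteins are secreted ligands that bind Frizzled receptors together with LRP5 or LRP6, and in the canonical branch this stabilises beta-catenin, which acts in the nucleus with TCF/LEF factors. Secreted antagonists act outside the cell. DKK1 and DKK2 bind the LRP co-receptors, whereas WIF1 and the secreted Frizzled-related proteins (SFRP1, SFRP2, SFRP5 and FRZB) bind Wnt ligands themselves, and DKK3 is the divergent member of the Dickkopf family. In the developing eye canonical Wnt signalling is known for its part in RPE fate, and Dkk1 is itself a known target of the pathway.

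Library totals ranged from 10.9 to 34.0 M counts (M, mega), so that 3 counts, taken as the limit for a gene at 0, equal 0.0883 to 0.275 CPM (counts per M of a library total). Optic stalk markers (Pax2, Vax1, Vax2, Sox2 and Sox9) were present in every group, with Vax2 alone at 0 throughout 1 group, the axon mutants. Axon-region libraries had the highest median of summed RGC and axon markers, with a range of 1185 to 1577 CPM in controls, though Pou4f2, an RGC transcription factor, was at 0 there. Smarcc1 ran from 14.7 to 64.4 CPM in ventral mutants against 75.7 to 197.9 CPM in ventral controls and from 1.86 to 44.9 CPM against 50.1 to 242.0 CPM in the axon region, while in the dorsal OS the 2.26 to 106.6 CPM of mutants overlapped the 75.9 to 289.3 CPM of controls. Dorsal control 3 stood apart from its group, with 11220 CPM of mesenchyme markers and 39.5 CPM of pigment epithelium markers against 1162 to 3496 CPM and 1326 to 4912 CPM in the other 3 dorsal controls. Without this library, the dorsal difference of mean log2(CPM + 1), mutant minus control, went from -0.12 to -1.71 for Dkk3, from -0.72 to -1.28 for Sfrp1, from -0.78 to -1.03 for Frzb and from 0.39 to 0.44 for Sfrp2, and stayed at 6.58 for Dkk1. Wif1, Dkk2 and the lists of other genes are given with and without it below, and other means of dorsal controls include it.

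Dkk1 (ENSMUSG00000024868.8) lies on the minus strand of chromosome 19, at 30545863 to 30549665 in mm10, and Wif1 (ENSMUSG00000020218.11) on the plus strand of chromosome 10, at 121033960 to 121100650. Because these 2 genes carry the dorsal pattern, the sequence just upstream of each RefSeq start site (GRCm38.p6, from 250 to 51 bases before the start) is shown, read 5′ to 3′ on the strand of the gene. The window is chr19:30549547-30549746 for Dkk1 and chr10:121033754-121033953 for Wif1. The position given above for Dkk1 is that of GENCODE M21 and ends at 30549665, so the 2 sources differ on its start. Part of the Dkk1 window is upstream of the RefSeq start but inside the gene as GENCODE M21 places it. Capitals mark the TCF/LEF core CTTTGA or its reverse complement TCAAAG, which were searched on both strands.
Dkk1: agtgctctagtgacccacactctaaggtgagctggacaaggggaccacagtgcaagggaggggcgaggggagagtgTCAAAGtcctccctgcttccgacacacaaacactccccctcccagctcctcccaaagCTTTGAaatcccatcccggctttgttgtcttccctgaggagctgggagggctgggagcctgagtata
Wif1: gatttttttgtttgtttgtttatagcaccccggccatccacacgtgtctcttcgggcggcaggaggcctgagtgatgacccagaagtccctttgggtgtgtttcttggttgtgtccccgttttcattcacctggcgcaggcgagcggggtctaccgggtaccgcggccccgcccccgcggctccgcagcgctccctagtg
The Dkk1 window holds 2 matches, 1 as TCAAAG at -174 to -169 and 1 as CTTTGA at -117 to -112 from the start. At least 1 match occurs in 11.8% of the 32851 RefSeq mouse promoter windows of the same length and 2 or more in 0.935%. The Wif1 window holds none, and of the other members with a promoter entry Frzb has 1 match, at -95 to -90, while Dkk2, Sfrp2 and Sfrp5 have none. The Dkk1 match at -117 to -112 and the Frzb match lie inside their genes as placed by GENCODE M21. The other Dkk1 match touches the edge of the gene. No promoter entry was used for Dkk3 and Sfrp1. A match of 6 letters is a description of the sequence, not a binding site, and its lack says only that these letters are not in the window.

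Dkk1 was counted in 6 of 27 libraries. It was at 0 in all 4 dorsal controls, and in dorsal mutants 1 to 5 it was at 77.3, 93.7, 127.6, 105.8 and 78.5 CPM, from 843 to 1805 counts each. The mean of the dorsal mutants was 96.6 ± 20.9 CPM (SD, n = 5), at least 560.1-fold higher than the dorsal controls when these are set at 3 counts per library, a mean of 0.172 CPM. All 5 mutant libraries lay above all 4 controls, and both batches showed it, with mutant means of 99.5 CPM in batch A and 92.1 CPM in batch B. Dkk1 was the one member whose dorsal groups did not overlap. Genes with mutants above all controls made up 1.31% of the 16145 genes tested in the dorsal OS and genes with mutants below all controls 1.61%, and since the set was chosen on this contrast nothing is read from that share.

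Outside the dorsal OS, Dkk1 was counted in a single library, ventral mutant 4, with 268 counts or 18.7 CPM. The other 4 ventral mutants, the 4 ventral controls and all 9 axon-region libraries were at 0. The dorsal library of the same embryo, mutant 4, had 5.66 times the ventral level. In the ventral OS, edgeR's quasi-likelihood test gave Dkk1 an adjusted p of 0.999 (unadjusted p = 0.0772), whereas DESeq2 gave 1.51e-05. Dkk1 passed the filter on low counts only through the dorsal mutants, which chose it, so nothing is read from either value. The exact permutation test gave an adjusted p of 1.0 (unadjusted p = 1.0). That outcome was fixed beforehand, since with counts in 1 mutant library alone every split differs by at least as much. The DESeq2 call rests on that 1 library. In these bulk samples fewer cells of a type and less RNA per cell cannot be told apart, for Dkk1 and for every gene below.

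**Figure D1:**
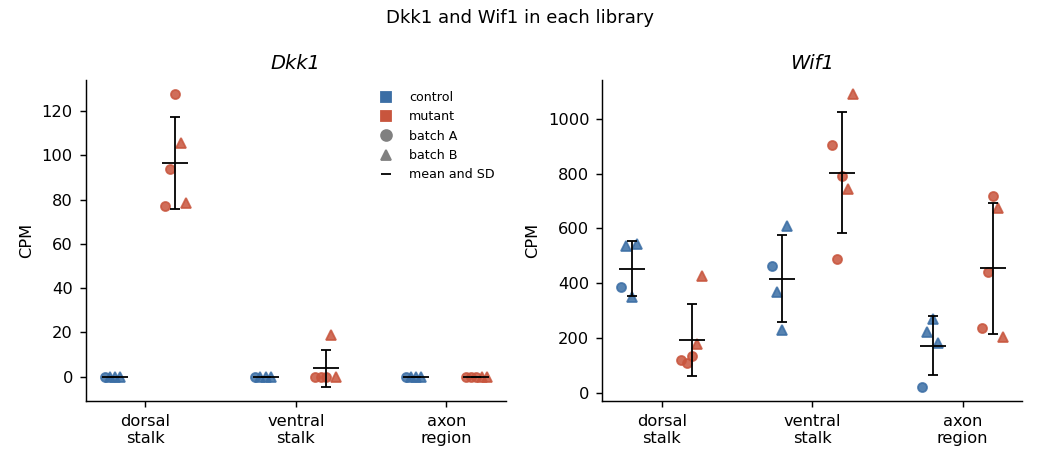
CPM of Dkk1 (left) and Wif1 (right) in each library of the dorsal OS, ventral OS and axon region, with controls in blue, mutants in red, batch A as circles, batch B as triangles, and a bar for the mean and SD of each group (n = 4 controls, n = 5 mutants). Dkk1 stands above 0 in the 5 dorsal mutants (77.3 to 127.6 CPM) and in ventral mutant 4, and mutant Wif1 is low in the dorsal OS and high in the ventral OS.

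Wif1 was the most abundant of the 8 genes per length of transcript, with a mean of 174.3 CPM per kb over the 27 libraries, and was counted in every one of them. In dorsal controls 1 to 4 it stood at 385.2, 533.8, 350.2 and 542.9 CPM, and in dorsal mutants 1 to 5 at 119.4, 107.2, 133.3, 177.9 and 425.7 CPM. Of the 5 mutants, 4 lay below all controls and mutant 5 lay within their range. The mean was 453.0 ± 99.6 CPM (SD, n = 4) in controls and 192.7 ± 133.0 CPM (SD, n = 5) in mutants, 2.35 times higher in controls. The difference of mean log2(CPM + 1), mutant minus control, was -1.41, and it was -1.52 without dorsal control 3 and -0.76 within batch B, which holds 3 controls and mutants 4 and 5.

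In the ventral OS the mutant libraries were on the other side of the controls. Ventral controls 1 to 4 had 461.4, 366.8, 229.9 and 609.4 CPM of Wif1, and ventral mutants 1 to 5 had 905.9, 487.9, 790.3, 742.2 and 1089 CPM. Of the mutants, 4 lay above all controls and mutant 2 within their range. The means were 416.9 ± 159.7 CPM (SD, n = 4) and 803.1 ± 221.2 CPM (SD, n = 5), with an edgeR log2 fold change of 0.98 ± 0.30 (SE). The unadjusted p was 0.00784, but the p adjusted over all 16139 genes was 0.999, and over the alternatives the adjusted p ran from 0.136 with DESeq2 to 1.0. The two-sided exact permutation p was 0.0238 over all splits and 0.025 within batches, the latter the smallest that design allows, and 1.0 in both when adjusted over all genes. With 4 against 5 libraries no permutation value adjusted over all genes could pass, here or below, so nothing is read from the adjusted ones. By edgeR, Wif1 did not pass the test in the ventral OS.

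The axon region had the lowest control levels of Wif1, 21.8, 220.0, 267.5 and 180.6 CPM in controls 1 to 4. Axon-region mutants 1 to 5 had 236.6, 441.7, 717.4, 674.4 and 202.2 CPM, of which mutants 2, 3 and 4 lay above all controls. The means were 172.5 ± 106.5 CPM (SD, n = 4) and 454.4 ± 239.2 CPM (SD, n = 5), and the log2 fold change of 1.99 ± 0.74 (SE) had an unadjusted p of 0.0184 and an adjusted p of 0.880 with edgeR (0.268 to 1.0 over the alternatives). Control 1 is the only batch A control, so that without it the estimate comes from batch B alone, with a log2 fold change of 0.93. The exact permutation p was 0.0794 over all splits and 0.075 within batches, 0.939 and 1.0 adjusted over all genes.

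Within embryos, as matched by the number in the titles, the order of dorsal and ventral OS was uniform in mutants and mixed in controls. Set against the axon region, dorsal Wif1 was the higher in 4 of 4 control embryos and the lower in 4 of 5 mutant embryos. In all 5 mutant embryos Wif1 was lower in the dorsal than in the ventral OS, by 2.56 to 7.59 times, whereas among the 4 control embryos the dorsal level was the lower in 2 and the higher in 2, and the ratio of dorsal to ventral lay between 0.835 and 1.52. By group mean, ventral mutants came first, followed by axon mutants and dorsal controls at nearly the same mean, then ventral controls, dorsal mutants and axon controls. Neighbours in that order overlapped in their ranges in every case. Because dorsal libraries chose this gene, these orders are a description.

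Sfrp2, which binds Wnt ligands, was second in level per length (52.4 CPM per kb) and of the 6 members other than Dkk1 and Wif1 it had the smallest p-values in both comparisons of the dorsal OS with another control region. The gene (ENSMUSG00000027996.13) lies on the plus strand of chromosome 3, at 83766321 to 83774316, and shares 16.1% of its exonic bases with Gm26771, so reads of the 2 genes may not be told apart there. Dorsal controls 1 to 4 had 68.0, 17.2, 37.1 and 29.0 CPM and ventral controls 1 to 4 had 218.1, 163.8, 138.8 and 177.9 CPM. The control groups did not overlap, as was so with the dorsal OS lower for 1.39% of genes tested, and in each of the 4 control embryos the ventral level was the higher, by 3.21 to 9.5 times. Compared within embryos, the dorsal minus ventral log2 fold change was -2.37 ± 0.51 (SE) with an unadjusted p of 0.00251. Adjusted over 16118 genes the edgeR p was 1.0, and it was 0.00158 with DESeq2, the lowest of the alternatives (up to 1.0).

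The axon region of controls 1 to 4 had 102.5, 60.3, 173.3 and 270.7 CPM of Sfrp2, above the dorsal OS of the same embryo in 4 of 4, by 1.51 to 9.34 times. The dorsal minus axon log2 fold change of -2.17 ± 0.68 (SE) had an unadjusted p of 0.0171 and an edgeR adjusted p of 0.800 (0.137 to 0.871 over the alternatives). Between the ventral OS and the axon region the controls overlapped (log2 fold change 0.21 ± 0.48 SE, edgeR adjusted p = 1.0), and the dorsal OS had the lowest mean of the 3 control regions, 37.8 ± 21.7 CPM (SD, n = 4). Markers of other cells also differed between the control regions. Of 10 mesenchyme markers all had higher means in the dorsal than in the ventral OS (median log2 difference 4.86 against -0.05 over all genes, 0 called by edgeR, 8 at an unadjusted p under 0.05, 9 called by DESeq2), as had 7 of 7 endothelium markers (median 2.81, 0 called by edgeR, 1 at an unadjusted p under 0.05, 4 called by DESeq2). Against the axon region 9 of 10 and 7 of 7 were higher in the dorsal OS (medians 1.83 and 3.28 against 0.37 over all genes). The part of these cells in the regional values of Sfrp2 was not tested.

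In the mutants the dorsal OS also had less Sfrp2 than the ventral OS in 5 of 5 embryos, by 1.13 to 5.62 times. Dorsal mutants 1 to 5 had 18.9, 210.9, 47.7, 28.5 and 31.0 CPM, so mutant 2 stood far above the other 4, which lay in the range of the dorsal controls. Ventral mutants 1 to 5 had 106.3, 238.4, 256.0, 51.3 and 143.0 CPM, on both sides of the ventral controls (edgeR log2 fold change -0.51 ± 0.43 SE, adjusted p = 0.999). Axon-region mutants had 174.8, 136.1, 4.01, 25.9 and 114.3 CPM and overlapped their controls (log2 fold change -0.79 ± 1.02 SE, edgeR adjusted p = 0.951).

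**Figure D2:**
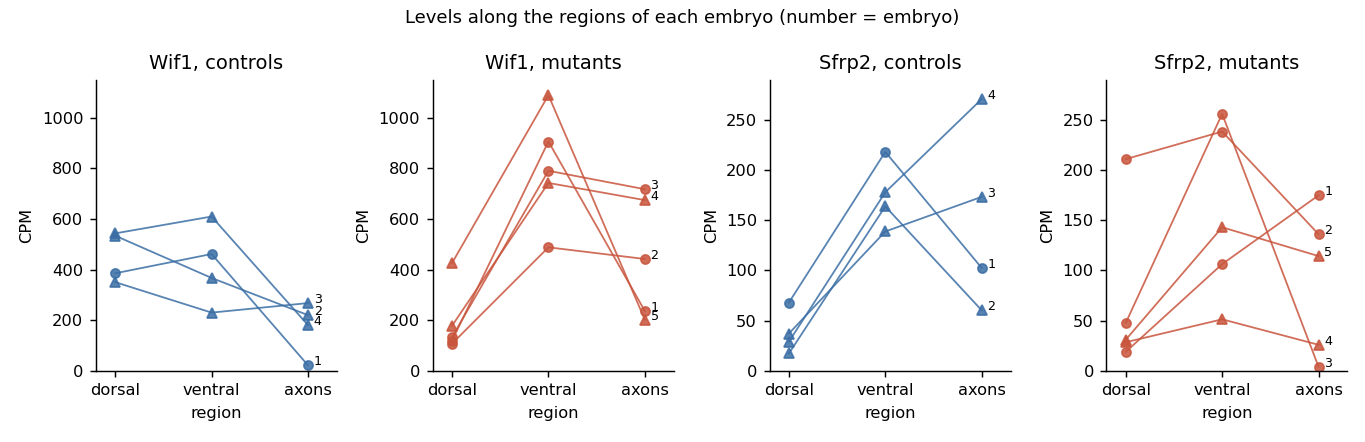
CPM of Wif1 and Sfrp2 (vertical axes) in the dorsal OS, ventral OS and axon region of each embryo, with 1 line per embryo, its number at the right, controls in blue, mutants in red, batch A as circles and batch B as triangles. Wif1 is lower dorsally than ventrally in all 5 mutants and in 2 of 4 controls, and Sfrp2 is lower dorsally than ventrally in all 9 embryos.

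Sfrp1 is a relative of Sfrp2 that also binds Wnt ligands (ENSMUSG00000031548.7, chromosome 8, plus strand, 23411502 to 23449632). It was counted in all 27 libraries at a mean of 31.2 CPM per kb. Axon-region controls 1 to 4 had 46.5, 93.2, 66.9 and 81.3 CPM and mutants 1 to 5 had 102.1, 143.2, 72.4, 216.3 and 227.1 CPM. All mutants except mutant 3 lay above all controls. The log2 fold change of 1.36 ± 0.57 (SE) had an unadjusted p of 0.0336 and an adjusted p of 0.880 with edgeR (0.176 to 1.0 over the alternatives), and the exact permutation p was 0.0635 over all splits and 0.075 within batches, 0.939 and 1.0 adjusted over all genes. Both the ventral and the dorsal OS gave overlapping groups. Ventral controls had a lowest, median and highest value of 20.7, 153.6 and 179.2 CPM and ventral mutants of 64.3, 166.9 and 328.0 CPM (log2 fold change 0.16 ± 0.63 SE, edgeR adjusted p = 0.999), and the dorsal values were 43.7, 197.4 and 247.8 CPM in controls and 44.2, 52.5 and 234.9 CPM in mutants.

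Dkk3, whose protein differs from the other Dickkopf proteins in how it acts, was counted in 25 of 27 libraries at uneven levels (ENSMUSG00000030772.6, chromosome 7, minus strand, 112116017 to 112159057, 25.6 CPM per kb on average). Dorsal control 3 and dorsal mutant 4 were at 0, whereas dorsal mutant 2 had 341.1 CPM, which carries most of the dorsal mutant mean of 86.4 CPM. The dorsal log2(CPM + 1) difference of -0.12 ran from -1.71 without control 3 to 1.04 without mutant 4. The group means lay between 65.0 and 111.2 CPM in all 6 groups, with overlap of controls and mutants in each region. The mutant against control log2 fold change was 0.30 ± 0.55 (SE) in the ventral OS and -0.11 ± 1.03 (SE) in the axon region, with edgeR adjusted p-values of 0.999 and 1.0.

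Dkk2, an antagonist of the LRP co-receptors like Dkk1 (ENSMUSG00000028031.6, chromosome 3, plus strand, 132085292 to 132180304), was low and uneven. Dorsal controls 1 to 4 had 0.166, 2.85, 172.6 and 25.5 CPM, and dorsal mutants 1 to 5 had 0, 0, 0, 3.52 and 7.24 CPM. Mutants 1 to 3 lay below all controls, and the log2(CPM + 1) difference of -2.54 was -1.26 without dorsal control 3, the library with the most mesenchyme markers. Ventral controls had 0, 1.30, 7.66 and 3.98 CPM and ventral mutants 9.09, 3.32, 81.9, 13.9 and 4.29 CPM, the other way round, with 3 of 5 mutants above all controls. That ventral difference had a log2 fold change of 2.41 ± 2.66 (SE), an edgeR adjusted p of 0.999 and an exact permutation p of 0.0952 (1.0 adjusted over all genes). The axon region held 0 to 46.3 CPM in controls and 0 to 47.5 CPM in mutants.

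Frzb and Sfrp5, both genes for Frizzled-related Wnt binders, were close to the limit of counting. Frzb (ENSMUSG00000027004.3, chromosome 2, minus strand, 80411970 to 80447625) was counted in 6 of 27 libraries and reached at most 12.9 CPM, in axon-region control 2. Of the 6 libraries 4 were controls (dorsal 4, ventral 1 and 4, axon region 2) and the others were ventral mutants 1 and 5, at 1.51 and 6.24 CPM. Sfrp5 (ENSMUSG00000018822.7, chromosome 19, minus strand, 42197971 to 42202252) had 8 counts in ventral control 1, or 0.409 CPM, and 0 in the other 26 libraries, which does not show that it is absent from these cells.

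**Figure D3:**
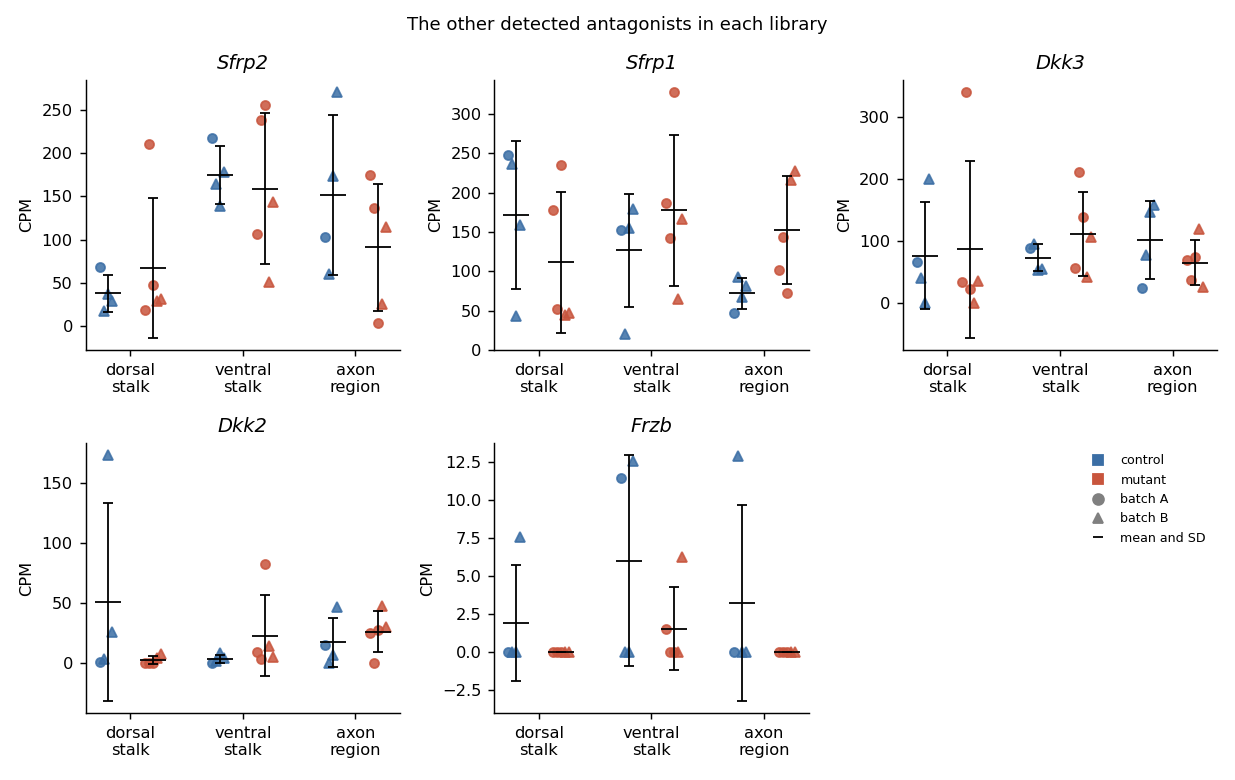
CPM of Sfrp2, Sfrp1, Dkk3, Dkk2 and Frzb in each library by region, with controls in blue, mutants in red, batch A as circles, batch B as triangles, and a bar for the mean and SD of each group (n = 4 controls, n = 5 mutants). Sfrp2 is lower in the dorsal than in the ventral controls, the Dkk2 mean of the dorsal controls rests on 1 library at 172.6 CPM, and in these 5 genes controls and mutants overlap in every region.

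Outside the dorsal OS no member had control and mutant groups without overlap, where 0.52% of genes tested had every ventral mutant higher and 0.706% every one lower, and the shares in the axon region were 0.24% and 1.04%. No member passed edgeR's test in any of the 5 comparisons that did not choose the set. The 2 genotype comparisons and the 3 comparisons of regions within controls called few genes of any kind. The ventral OS gave 0 calls among 16139 genes (0.0%) and the axon region 0 among 14977 (0.0%), while 515 and 531 genes had an unadjusted p under 0.05. Within controls the count was 0 of 16118 (0.0%) for dorsal against ventral OS, 2 of 15899 (0.0126%) for dorsal OS against axon region, and 0 of 15839 (0.0%) for ventral OS against axon region, and 410, 625 and 418 genes (2.64% for the last) had an unadjusted p under 0.05. Without the embryo as a block the last 2 counts were 11 and 5. At an unadjusted p under 0.05 stood Wif1 in the ventral OS (background 3.19%), Wif1 and Sfrp1 in the axon region (3.55%), Sfrp2 in dorsal against ventral controls (2.54%) and Sfrp2 in dorsal against axon-region controls (3.93%). DESeq2 called 342, 1238, 623, 1038 and 976 genes in these 5 comparisons, in the order above, and 3 calls were of members, namely Dkk1 in the ventral OS, Sfrp2 in dorsal against ventral controls and Frzb in ventral OS against axon region of controls (adjusted p = 0.0348). Nothing is read from the Dkk1 call, which rests on 1 library.

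Markers of other cells moved with genotype beside these genes. In the dorsal OS, 8 of 8 tested pigment epithelium markers of the 9 listed had higher mean levels in mutants, with a median log2 difference of 3.24 against 0.01 over all genes tested (2.36 against -0.12 without dorsal control 3), with 0 passing the edgeR test, 1 at an unadjusted p under 0.05 and 0 called by DESeq2. Their summed level ran from 39.5 to 4912 CPM in dorsal controls and from 3143 to 12280 CPM in dorsal mutants, with Rpe65, a gene of mature RPE, at 0 in every group. Dorsal controls 1 and 4, at 4912 and 4889 CPM, had a higher sum than dorsal mutant 4, at 3143 CPM, and Dkk1 was at 0 in both controls and at 105.8 CPM in that mutant. These sums are mostly Pmel, a melanosome gene, with 4117 and 4433 CPM in those controls and 2032 CPM in that mutant. Tyr, for the enzyme that starts melanin synthesis, was at 0 to 122.3 CPM in dorsal controls and 427.4 to 919.7 CPM in dorsal mutants, and Otx2, an RPE transcription factor, at 0 to 64.3 CPM and 143.8 to 369.3 CPM, both without overlap, as with Dkk1. The other tested pigment markers, Dct, Tyrp1, Mlana, Mitf, Slc45a2 and Pmel, overlapped between the dorsal groups. Dct, for one, was at 304.2 CPM in dorsal control 1 and 221.8 CPM in dorsal mutant 4. Ventral mutants had higher means for 6 of 7 tested pigment markers, with a median log2 difference of 1.57 against -0.03 over all genes. By edgeR 0 passed and 1 had an unadjusted p under 0.05, while DESeq2 called Otx2 alone. Ventral Otx2 was at 0 to 3.54 CPM in controls and 17.6 to 86.9 CPM in mutants, also without overlap, with Dkk1 at 0 in 4 of these 5 mutants. Ventral mutant 1 had 3982 CPM of pigment markers and no count of Dkk1, and ventral mutant 4, which had Dkk1, had 656.4 CPM, the lowest of the ventral mutants. Its Tyr level was 42.7 CPM, and that of ventral mutant 1 was 65.3 CPM. The part of pigment epithelium cells in the Dkk1 difference was not tested.

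Mesenchyme markers (Col1a1, Col1a2, Col3a1, Pdgfra, Twist1, Prrx1, Foxc1, Lum, Dcn and Postn) went the other way. All 10 had lower means in dorsal mutants, with a median log2 difference of -4.38, and 0 of 10 passed the edgeR test while 7 had an unadjusted p under 0.05 and DESeq2 called 6. Their summed level ran from 1162 to 11220 CPM in dorsal controls and from 55.6 to 395.4 CPM in dorsal mutants, and from 55.5 to 1342 CPM in ventral controls and 53.9 to 198.9 CPM in ventral mutants. Without dorsal control 3 the median was -3.63, with 10 of 10 lower. Dorsal control 3 had the highest Dkk2 and the highest mesenchyme sum of all libraries. Ventral mutant 3 had the highest of both among ventral mutants (81.9 and 198.9 CPM), and ventral control 3 among ventral controls (7.66 and 1342 CPM). In the axon region the orders differed. Mutant 2 there had the highest mutant sum (2316 CPM) and no Dkk2 count. Mutant 4 had the lowest (628.8 CPM) and the highest Dkk2 (47.5 CPM). Control 1 there had the highest control sum (2526 CPM), while control 4, at 614.3 CPM, had the most Dkk2 (46.3 CPM). Control 2 was lowest in both (389.5 and 0 CPM). Dorsal control 2 had 3496 CPM of these markers and 2.85 CPM of Dkk2, against 1885 and 25.5 CPM in dorsal control 4.

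Further marker lists had lower medians in the dorsal mutants. Neural crest melanoblast markers (Sox10, Kit and Ednrb) summed to 92.2 to 346.0 CPM in dorsal controls and 0 to 47.7 CPM in dorsal mutants, and optic stalk markers to 263.3 to 420.0 CPM and 163.9 to 243.7 CPM, neither with overlap. Endothelium markers summed to 226.8 to 443.6 CPM and 43.2 to 383.7 CPM, with overlap. The means were lower in mutants for 3 of 3, 3 of 5 and 7 of 7 of these genes, with median log2 differences of -1.97, -0.88 and -2.25. None of these genes (0) passed the edgeR test, 1 optic stalk gene had an unadjusted p under 0.05, and DESeq2 called Kit and Tek. The part of mesenchyme and of these cells in the dorsal values of Dkk2 and Wif1 was not tested.

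**Figure D4:**
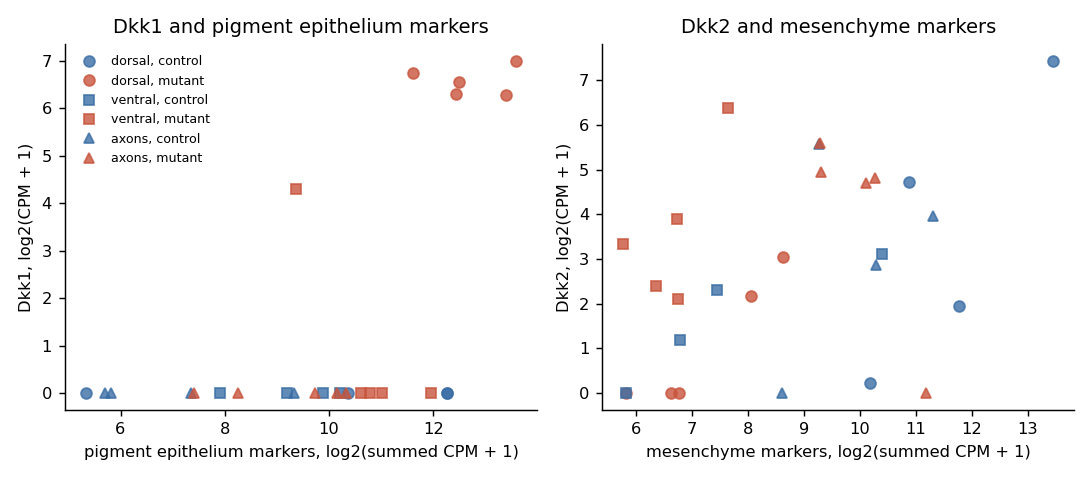
Left, Dkk1 as log2(CPM + 1) against the summed pigment epithelium markers, and right, Dkk2 against the summed mesenchyme markers, both sums as log2(CPM + 1), with 1 point per library, controls in blue, mutants in red, and dorsal OS, ventral OS and axon region as circles, squares and triangles. By this sum, which is mostly Pmel, dorsal controls 1 and 4 lie in the range of the dorsal mutants with Dkk1 at 0, and dorsal control 3 has the highest value on both axes of the right panel.

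Over the 27 libraries, the 5 genes most like Dkk1 by Pearson's r of log2(CPM + 1) among 16319 genes were Gpr143 (0.876), Rab27a (0.874), Slc4a5 (0.866), Slc38a8 (0.856) and Gm9776 (0.854). Gpr143 encodes a receptor of the pigment granule and Rab27a a small GTPase of its transport. Mean Gpr143 was 0 in dorsal controls and 49.0 CPM in dorsal mutants, and mean Slc38a8, an amino acid transporter gene, was 4.68 and 288.1 CPM. For Wif1 they were Slc5a3 (0.793), Bora (0.774), Tgfb2 (0.766), Fkbp9 (0.759) and Nr2f1 (0.742). Tgfb2, a growth factor gene, had means of 508.9 CPM in dorsal controls (550.6 CPM without control 3) and 95.4 CPM in dorsal mutants, and 464.1 and 336.5 CPM in the ventral OS, where Wif1 had its higher mean in mutants.

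Dkk1 was counted in 6 of 27 libraries, of which 5 were dorsal mutants, so its values of r follow the contrast that chose it. The 3 other members of highest mean CPM are therefore not ranked against Dkk1 and Wif1. Sfrp2 was nearest to Knstrn (0.720), Limd2 (0.671), Hist1h4i (0.665), Mrpl12 (0.664) and Birc5 (0.651), of which Knstrn and Birc5 encode proteins of the mitotic spindle. Sfrp1 was nearest to Bcap31 (0.663), Fam213a (0.660), Trp53-ps (0.645), Ppp5c (0.628) and Scube2 (0.625), and Dkk3 to Ccndbp1 (0.716), Pdpn (0.71), Cnot8 (0.702), Ppp2r3c (0.689) and Tmem237 (0.678). These correlations describe 27 libraries that share embryos, regions and amplification, and the highest of many is always high.

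The rest of the Wnt pathway was taken from 6 lists with 93 genes in all (ligands, receptors and co-receptors, R-spondins and receptor turnover, transducers and nuclear factors, other antagonists, and targets and feedback genes). Some genes stand in more than 1 list. The targets share Lgr5, Rnf43 and Znrf3 with the R-spondin list, and Notum, Apcdd1, Lef1 and Tcf7 with other lists. Between 68 and 70 of them were tested per comparison, and edgeR called 0 of them in each of the 6 comparisons, the dorsal genotype comparison included, in which it called 2 of 16145 genes (0.0124%). At an unadjusted p under 0.05, 2 were higher and 4 lower in dorsal mutants (8.70% of the 69 tested, against 5.35% of all genes), 1 higher and 1 lower in ventral mutants (2.86%), and 0 higher and 2 lower in axon-region mutants (2.90%). DESeq2 called 2 of the 93 listed genes in each of the genotype comparisons, though not all 93 were tested. These were Lgr5 and Shisa3 in the dorsal OS, Lgr5 and Nkd2 in the ventral OS, and Fzd1 and Wnt4 in the axon region. Over all genes DESeq2 also called far more than edgeR. Its counts of pathway and marker genes, here, above and below, were not set against its share over all genes. No excess over background is read from them. Within controls 7 were higher and 0 lower in the dorsal than in the ventral OS of 70 tested, where the share over all genes was 2.54%, where mesenchyme and endothelium markers also had higher means. Without control 3 these counts were 3 higher and 1 lower within controls, and 1 higher (Lgr5) and 2 lower (Fzd8 and Znrf3) in dorsal mutants. DESeq2 called 6 there, 8 in dorsal OS against axon region and 4 in ventral OS against axon region. At an unadjusted p under 0.05 these last comparisons had 3 genes each (4.29% and 4.41% of those tested, against 3.93% and 2.64% of all genes), namely Wnt7b, Lgr4 and Dvl3 in the former and Lgr4, Apc and Tle4 in the latter.

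Among the ligands, Wnt7b was the most abundant. Its mean was 194.6 ± 69.2 CPM (SD, n = 4) in axon-region controls and 78.0 ± 47.4 CPM (SD, n = 5) in axon-region mutants (log2 fold change -1.58 ± 0.67 SE, unadjusted p = 0.0330, edgeR adjusted p = 0.880), and 54.2 ± 26.4 CPM (SD, n = 4) in dorsal controls. Wnt8b had means of 45.2 CPM in ventral controls and 56.6 CPM in axon-region controls against 5.26 CPM in dorsal controls. Wnt5a, a ligand of the non-canonical branch, had the opposite order, 33.2 CPM in dorsal and 3.26 CPM in ventral controls (unadjusted p = 0.0370, edgeR adjusted p = 1.0).

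The receptor genes with the highest means were Fzd3, Fzd8 and Fzd7. Fzd8 had 112.1 ± 60.7 CPM (SD, n = 4) in dorsal controls and 27.7 ± 24.0 CPM (SD, n = 5) in dorsal mutants (unadjusted p = 0.0305, edgeR adjusted p = 0.918), and 117.6 and 110.7 CPM in ventral controls and mutants. Fzd3 lay between 162.6 and 280.5 CPM and Fzd7 between 39.3 and 84.5 CPM over the 6 group means. Of the genes that set receptor turnover, Znrf3, whose product removes Frizzled from the membrane, had 96.8 ± 23.1 CPM (SD, n = 4) in dorsal controls and 33.2 ± 22.0 CPM (SD, n = 5) in dorsal mutants (unadjusted p = 0.0428, edgeR adjusted p = 0.918). Rspo3, an R-spondin that opposes this removal, had means of 77.9 and 31.5 CPM there, and Lgr4, an R-spondin receptor, 130.6 and 207.6 CPM.

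The transducers are shared by all Wnt signals of the canonical branch. Ctnnb1 (beta-catenin) had means of 319.8 to 658.3 CPM over the 6 groups, Csnk1a1 of 257.8 to 391.5 CPM and Gsk3b of 243.3 to 351.5 CPM. Among other antagonists, Igfbp4 had 262.8 ± 215.1 CPM (SD, n = 4) in dorsal and 97.7 ± 66.6 CPM (SD, n = 4) in ventral controls (unadjusted p = 0.00932, edgeR adjusted p = 1.0), and 156.7 CPM dorsally without control 3, Shisa2 lay between 49.8 and 127.4 CPM over the groups, and Sostdc1 had means of 25.7 CPM in axon-region controls and 0.427 CPM in axon-region mutants. Among targets and feedback genes, means of Nkd1 were 44.6 and 16.2 CPM in dorsal controls and mutants and those of Ccnd1, a cyclin, 184.2 and 328.6 CPM. The median log2 difference of the 13 tested target and feedback genes in dorsal mutants was -1.69, against 0.01 over all genes, with 4 above 0 and 9 below, and it was -0.45 against -0.12 without control 3. Of the genes counted above, Znrf3 and Nkd2 (lower) and Lgr5 (higher) are among them.

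The other genes behind these unadjusted counts were named after their values were seen. In dorsal mutants they were Lgr5, a stem cell gene and Wnt target, with a mean of 13.1 CPM against 0.0168 CPM in controls, Fzd9 (3.07 CPM against 0), Shisa3 (0 against 39.4 CPM) and Nkd2 (0.0133 against 10.9 CPM). Without control 3 the control means of Shisa3 and Nkd2 were 10.4 and 1.29 CPM. Lgr5 had a mean of 13.2 CPM in ventral mutants too, against 0 in their controls, and an edgeR adjusted p of 0.999 (unadjusted p = 0.0224). Wnt9a was the ventral gene with the lower mutant mean (0 against 6.07 CPM), and Wnt4 the other one of the axon region (0 against 14.4 CPM). In controls, the genes higher in the dorsal than in the ventral OS were Wnt5a, Wnt5b, Ryk, Apc, Dvl3, Shisa3 and Igfbp4.

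**Figure D5:**
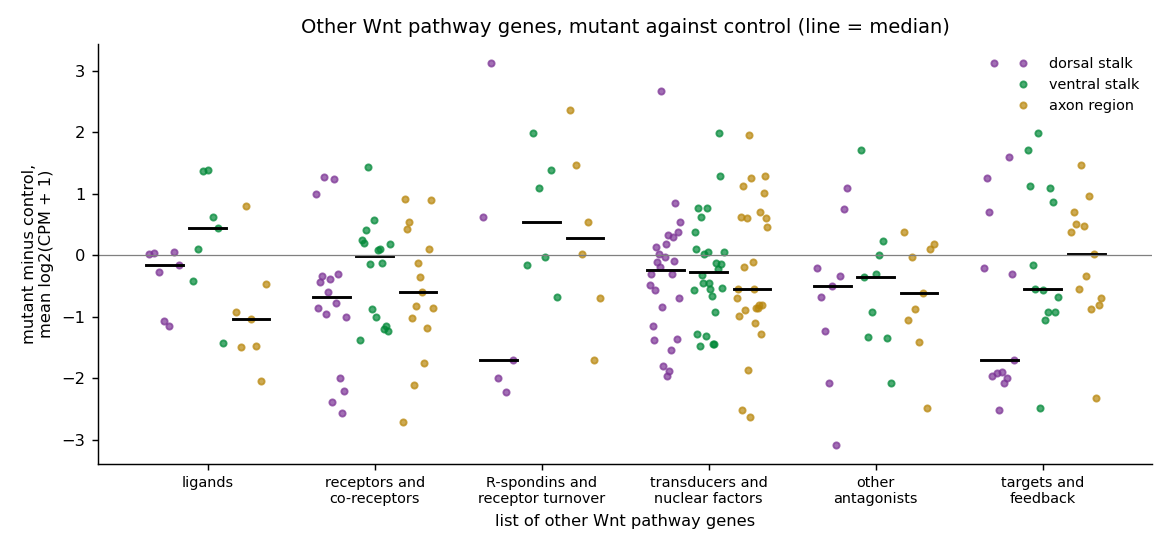
Difference of mean log2(CPM + 1), mutant minus control, for each tested gene of the 6 lists of other Wnt pathway genes (horizontal axis), with the dorsal OS in purple, the ventral OS in green and the axon region in ochre, 1 point per gene and a black line at the median. The dorsal medians of the R-spondin and of the target lists are at -1.69 (-0.45 without dorsal control 3), and no gene shown passed the edgeR test. These lists share Lgr5, Rnf43 and Znrf3, so their medians are not independent.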

How the data were processed

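Geo-seq libraries (laser capture, PCR amplification, Nextera XT, single-end reads) were made from embryonic day 14 OS. Per the study's methods and the labels, the authors aligned reads to mm10 with STAR and counted them with HTSeq within Seq2Science, and the deposited table holds raw counts per gene with no scaling. Versions and the strand setting are not given in the sources used here, so a gene and a neighbour that overlap it on either strand may share reads. The reads carry no molecular identifiers, so floors and intervals cover counting error only. Symbols and positions came from GENCODE M21, which matched 55227 of 55487 identifiers. The 260 others hold 0.00287% of the counts. No pair of libraries was identical (0 pairs), and 22523 genes were at 0 everywhere.

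Region, genotype, batch (A, 1 control and 3 mutant embryos; B, 3 and 2) and embryo number came from the labels. The members, gene lists and tests were chosen with earlier results of these data known. CPM is the count per M total counts. Genes were kept if over 10 counts were found in 3 or more libraries (16330 genes) and tested with edgeR 4.0.16 in R 4.3.3 (quasi-likelihood F-test, robust, legacy setting, TMM scaling), with calls made where the Benjamini-Hochberg p was under 0.05 and the absolute log2 fold change over 0.58. Batch was a term in the genotype comparisons, made region by region. Control regions were compared with the embryo as a block, since the number in the titles was read as the embryo that gave all 3 regions. The labels have no separate field for the embryo. Deviations of libraries of 1 embryo from their group means correlated at -0.019 to 0.115 over 12 control pairs (median 0.057). Over 15 mutant pairs they correlated at -0.002 to 0.108 (median 0.015), so these low values say little on the pairing. Approximate SE values were derived from the fold change and F. Exact permutation tests (two-sided, log2(CPM + 1)) used every assignment of genotype labels in a region or the 40 that keep the batches, with smallest p-values of 0.00794 and 0.025. DESeq2 1.42.0, RLE scaling, no count filter, other blocks, batch B alone and leaving out each library were alternatives. The steps were tested on simulated data.

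Named genes are the 8 members, Smarcc1, the 3 genes with the highest mean in each pathway list, any pathway gene called, and the 5 genes most correlated with Dkk1, Wif1 and the 3 other members of highest mean CPM. The check of Smarcc1 covers reads of the whole gene, not of the deleted exons alone. Embryonic day 12 tissue was not analysed here. A further gene of the mesenchyme marker list is not reported here, and its counts were left out of that list's values.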

Additional observations from a re-analysis of the deposited data

Results flagged for a closer look

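In 11 of 37 groups of 4 or 5 libraries with counts of a member, 1 library stood apart by Dixon's criterion at the 95% level. The rate of about 1 in 20 by chance holds for normally distributed values, not for skewed CPM. A group with counts in 1 library alone is always flagged, so no excess over chance is read from this number. The high ones were Dkk1 in ventral mutant 4 (18.7 CPM), Dkk2 in dorsal control 3 (172.6 CPM) and ventral mutant 3 (81.9 CPM), Dkk3 and Sfrp2 in dorsal mutant 2 (341.1 and 210.9 CPM), and Wif1 in dorsal mutant 5 (425.7 CPM). Sfrp1 in ventral control 2 was low (20.7 CPM). Frzb in dorsal control 4 (7.60 CPM), ventral mutant 5 (6.24 CPM) and axon-region control 2 (12.9 CPM), and Sfrp5 in ventral control 1 (0.409 CPM), stood out from libraries mostly at 0.

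For Wif1 every dorsal mutant lay below the mean of the dorsal controls (mutant to control ratio of means 0.425), and every ventral and axon-region mutant lay above the mean of its controls (ratios 1.93 and 2.64). For Dkk2 every dorsal mutant lay below the control mean (ratio 0.0428) and every ventral mutant above it (ratio 6.96). Both ratios rest on single libraries. Only control 3, at 172.6 CPM, lay above the dorsal control mean of 50.3 CPM, which was 9.51 CPM without it. Ventral mutant 3 had 81.9 CPM, whereas ventral mutant 2, at 3.32 CPM, was close to the ventral control mean of 3.23 CPM. The differences between regions were not tested, because dorsal libraries chose the set.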

How the results depend on the processing

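Of 171 member tests under settings that kept all replicates, 165 kept direction and side of the threshold, 3 passed only with DESeq2 (1 member each in the ventral OS, dorsal against ventral controls and ventral OS against axon region of controls) and 3 reversed: Sfrp1 in the ventral OS was -0.035 in batch B alone, Dkk3 in dorsal against ventral controls was 0.022 with no replicate block, and Dkk2 in dorsal OS against axon region of controls was -0.853 in a fit of all 12 control libraries. The causes were not tested.

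Counts of called genes moved more. The dorsal count of 2 became 532 with DESeq2, 101 with no count filter, 8 with no batch term, and 0 in batch B alone or with a replicate block in place of the batch term (445 at an unadjusted p under 0.05). It was 0 to 2 when a replicate was left out, falling to 0 without control 1 or any of mutants 1 to 4 and to 1 without control 2 or mutant 5. The ventral count of 0 became 342 and 8 with DESeq2 and no filter, and the axon-region count of 0 became 1238 and 10, and 5 in a fit of all 27 libraries. Dorsal against ventral controls gave 623 and 2 in place of 0. Dorsal OS against axon region gave 1038 with DESeq2, 1 with RLE scaling, 10 with no filter, 11 with no replicate block and 36 with all 12 control libraries in place of 2, and 0 to 1 without a replicate (1 without control 3, otherwise 0). Ventral OS against axon region gave 976, 5 with no filter, 5 with no replicate block and 13 with all 12 control libraries in place of 0. Same-numbered controls and mutants are different embryos (correlation of deviations -0.051 to 0.028), and a replicate block by number changed no member's call.

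With a replicate left out 158 of 179 member tests kept their direction. Ranges of the log2 fold change that crossed 0 were, within controls, Dkk2 -1.01 to 3.94 (dorsal against axon) and -3.95 to 0.28 (ventral against axon), Dkk3 -2.46 to 0.003 (dorsal against ventral), -2.08 to 0.10 (dorsal against axon) and -1.11 to 0.038 (ventral against axon), Frzb -4.70 to 6.34 and -0.007 to 9.53 (dorsal and ventral against axon), Sfrp1 -0.38 to 1.25 (dorsal against ventral) and -0.014 to 1.15 (ventral against axon) and Sfrp2 -0.16 to 0.54 (ventral against axon). Between genotypes they were Dkk3 -0.85 to 0.56 (axon region) and -0.076 to 0.64 (ventral OS), and Sfrp1 -0.20 to 0.51 (ventral OS).

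For the dorsal description, alternatives chosen after seeing the data kept 88 of 91 values within 1 SD. The Dkk1 difference of 6.58 on the log2(CPM + 1) scale was 9.89 with a pseudocount of 0.1 and 4.32 with a pseudocount of 5, and that of Wif1 was -0.76 in batch B alone. The values of gene lists without dorsal control 3 were also chosen after seeing the data. At these totals a member at 0 can, by counting error alone, lie at up to 0.275 CPM. With 4 against 5 libraries no permutation p below 0.00794 is possible, so adjusted permutation values over all genes could not pass.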
